A study of Mus musculus with 2 samples.

Results

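The serpins measured here were the genes of the array design whose name is Serpin followed by a clade letter and a number, and 62 of the 29923 named genes met that rule. They were compared between Pparg-cKO and control ureters of mouse embryos at E18.5. All animals were of the NMRI strain. Pparg-cKO embryos were Pax2-cre/+; Pparg(fl/fl), in which exons 2 and 3 of Pparg are removed wherever the Pax2-cre transgene is active. The study names the nephric duct, the ureteric epithelium and the collecting ducts of the kidney as these sites. Control embryos were Pparg(fl/?), with the other allele not stated, and carried no cre according to the study's methods. RNA from pools of whole ureters was hybridised to 2 arrays, each holding 1 Pparg-cKO pool and 1 control pool, so that 4 pools were measured in all. The first array (replicate 1) held female pools and the second (replicate 2) held male pools with the dyes exchanged, and array, sex and dye orientation cannot be told apart. A pool has no spread of its own. The p-values below rest on the spread between the 2 arrays, which limma draws towards the spread of all genes tested. They measure no spread between embryos.

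Serpins are a superfamily of proteins that mostly inhibit serine proteases by a suicide mechanism. The protease cuts a reactive loop of the serpin, stays bound to it covalently, and both are then inactive. Clade a holds antitrypsin and antichymotrypsin relatives and hormone carriers, many of which the liver secretes into plasma. Clade b holds the serpins that lack a classical signal peptide and act mostly inside cells, several of which are made by epithelia and white blood cells. The remaining clades hold secreted regulators of clotting, fibrinolysis and complement, the neurotrophic factor PEDF, and Serpinh1 of clade h, a collagen chaperone of the endoplasmic reticulum that inhibits no protease.

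Signals of the scanner software, in arbitrary units, are given for each pool, and ratios are Pparg-cKO over control after separate normalisation. Levels were compared only within a probe, since probes bind with different strength. Every ratio takes its sign from the deposited value table, and the study's text describes its genes in that direction too. By the dye labels as written, the sign is the opposite on both arrays, and every higher and lower would then be exchanged. The deposited direction is taken as the likely one because the study's tissue sections describe genes of superficial cells, such as Krt20, and the Pparg transcript left after the deletion in that direction. Krt20 gave 168 against 1557 in the female and 144 against 1407 in the male Pparg-cKO and control pools (log2 ratio -3.09 ± 0.08, SD, n = 2 arrays, limma adjusted p = 0.00620). Pparg itself gave signals of 12357 against 6113 in the female Pparg-cKO and control pools and 12930 against 6688 in the male pools (log2 ratio 0.97 ± 0.02, SD, n = 2 arrays, limma adjusted p = 0.0373). Whether its probe lies in the deleted exons was not analysed here, so that its level is no check of the deletion. All 12 urothelial and all 12 smooth muscle and mesenchymal marker genes examined were well above background. Of 11 kidney tubule markers, Umod, Slc12a1, Slc12a3 and Kap were not. Median log2 ratios for females and males were 0.04 and 0.0021 for the smooth muscle and mesenchymal markers, 0.06 and 0.17 for 9 endothelial markers, and -0.12 and -0.22 for the 7 kidney tubule markers tested. Of those 7, limma called 1, beside 0.751% of all genes. It was Fxyd4, which was higher, at 536 against 77.4 and 596 against 109 (limma adjusted p = 0.00620).

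Of the 62 serpins, 39 were well above background in at least 1 pool on each array and were tested, and 32 of these were well above background in all 4 pools. The other 23 had signals between 0.588 and 4.82 and were not tested. Of these 23, 20 were well above background in none of the 4 pools. Clade a had 25 genes, of which 16 were tested, and clade b had 27, of which 14 were tested. All members of clades c, d, e, f, g and h were tested, whereas of the 2 clade i genes only Serpini1, the gene of neuroserpin, was. An intensity of at least 100 on both arrays, the study's own threshold, was reached by 18 serpins.

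**Figure D1:**
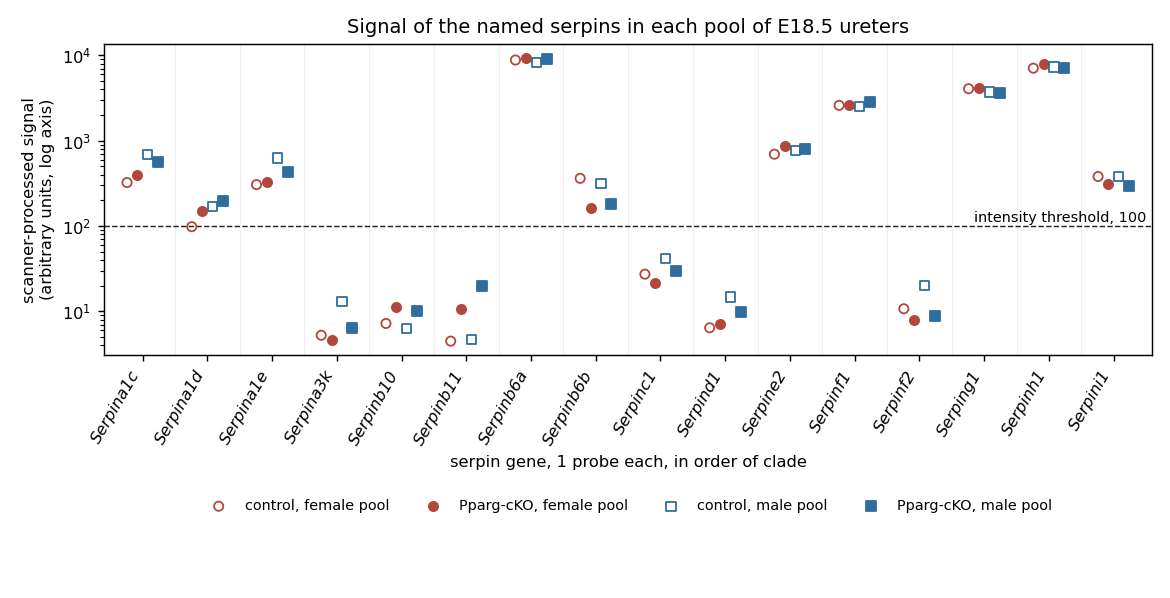
Scanner-processed signal (arbitrary units, log axis) of 16 serpins named by rule, in order of clade, in the female pools (circles) and male pools (squares), with control open and Pparg-cKO filled. Serpinb6b lies lower in the Pparg-cKO pool on both arrays (164 against 362, and 182 against 315), and Serpinb11 higher on both but far under the intensity threshold of 100 (dashed). Heights of different genes come from different probes and are not comparable.

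A single serpin, Serpinb6b, was lower in Pparg-cKO ureters by the study's rule, and none was higher. That rule asks for at least 1.5-fold on both arrays in 1 direction, with an intensity of at least 100. It was met by 1 of 18 serpins bright enough, beside 1.84% of all 14015 genes bright enough in either direction and 1.05% in the lower direction. The limma test, with p-values adjusted over all 22499 genes tested, called 0 of the 39 serpins at an adjusted p of 0.05, beside 0.751% of all genes, and the lowest adjusted p of a serpin was 0.137. At an unadjusted p of 0.05, 4 of the 39 passed (Serpinb6b, Serpinb11, Serpina1d and Serpini1), beside 8.51% of all genes. Of these, Serpinb11 was tested on the male array only through the Pparg-cKO pool, in which it was the brighter. No serpin was past 1.5-fold in opposite directions on the arrays.

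Averaged over both arrays, the serpins lay close to all genes. The median mean log2 ratio over the 39 was -0.03, beside 0.01 over all genes tested. The serpins' medians were 0.05 in the female pools and -0.12 in the male pools, beside -0.0060 and 0.01 over all genes. These are descriptions with no test. For 34 of the 39 (87.2%) the mean ratio was within 1.2-fold of equal, beside 86.1% of all genes. The 2 arrays gave the same sign for 21 of the 39 (53.8%), beside 52.8% of all genes, with 10 higher and 11 lower on both. Of the 18 with opposite signs, 16 (88.9%) had a ratio above 0 in females and below 0 in males, beside 45.7% of the 10626 such genes in all.

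**Figure D2:**
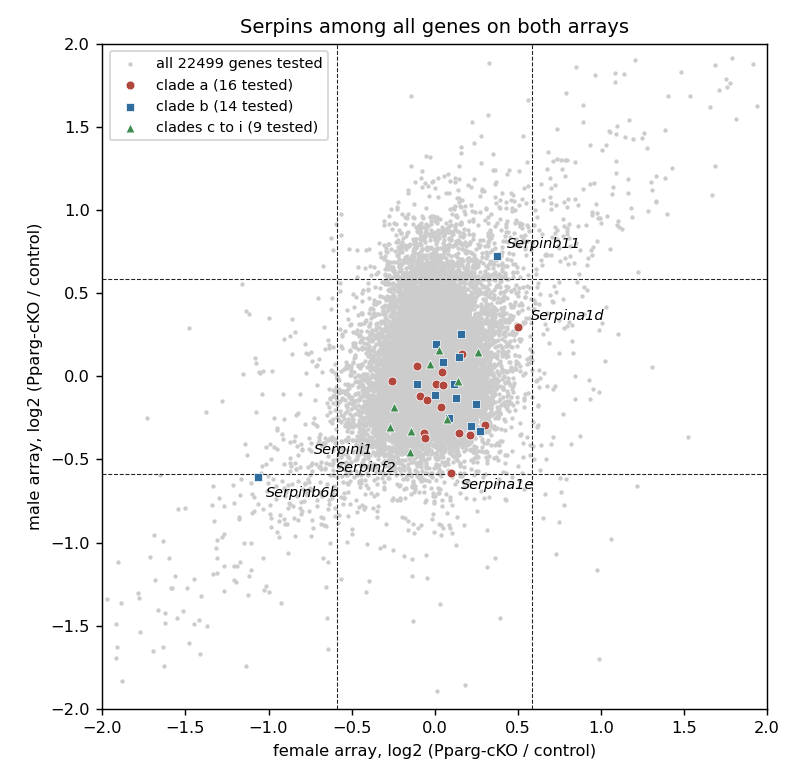
Log2 ratio of Pparg-cKO over control on the female array (horizontal) and on the male array (vertical) for all 22499 genes tested (grey) and the 39 serpins tested, coloured by clade. Dashed lines mark 1.5-fold, and 47 genes lie beyond the axes. Most serpins sit in the central cloud, and Serpinb6b is the only one outside the dashed lines on both arrays.

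Serpinb6b belongs to the Serpinb6 group of intracellular inhibitors, whose best known human relative, SERPINB6, inhibits thrombin, cathepsin G and other trypsin-like proteases. Its signals were 164 in the female Pparg-cKO pool and 362 in the female control pool, with 182 against 315 in males. Both Pparg-cKO pools were thus below both control pools. The log2 ratios were -1.07 and -0.60 (mean -0.83 ± 0.33, SD, n = 2 arrays), a 1.78-fold difference that the limma test did not call (adjusted p = 0.137, unadjusted p = 0.00228). The male ratio lay just past 1.5-fold. Under median centring in place of loess it was -0.33, and the gene no longer met the rule. With no offset in the background correction, limma called the gene (adjusted p = 0.0113). In these whole ureters, fewer cells of a type and less RNA per cell cannot be told apart. For the 12 urothelial markers the median log2 ratio was -0.34 for females and -0.02 for males, with summed signals of 71752 against 105927 and 87142 against 92306. Upk1b, a uroplakin of the luminal cells, was the 1 member of 12 that met the fold rule (log2 ratios -1.30 and -0.73), beside 1.05% of all genes in the lower direction. The 11 white blood cell markers had medians of 0.10 and -0.03, and of the 7 bright enough 0 met the rule, beside 1.84% of all genes. The part of either cell type in the Serpinb6b difference was not tested.

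The Serpinb6 genes lie on chromosome 13 among other clade b serpins, and whether their probes can tell them apart bears on the value. On build mm9 of the array design, the 60-base probe of Serpinb6b lies at chr13:33070776-33070835 (plus strand). Its longest run of bases shared with a probe of another Serpinb6 gene was 5 bases. The probes of Serpinb6a (chr13:34009796-34009855, minus strand), Serpinb6c (chr13:33971703-33971762, minus strand) and Serpinb6e (chr13:33924218-33924277, minus strand) shared a run of 18 bases. Stretches of 30 bases of these 4 probes, 5′ to 3′ as the scanner files give them, are shown to make that contrast visible, with the shared run in capitals.
Serpinb6a: AAGTGACCTTATCCATAAgtgcaatggcaa
Serpinb6c: aaacccAAGTGACCTTATCCATAAgtgcaa
Serpinb6e: ggcccAAGTGACCTTATCCATAAatataat
Serpinb6b: cagcaatactgggatctcaattttttggtt
The longest run shared by the Serpinb6a and Serpinb6c probes was 26 bases, so that their values may include each other's RNA. The Serpinb6b value shows no such overlap with a serpin probe of the design, but the transcripts themselves were not compared here.

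The other clade b serpins tested on chromosome 13 had ratios closer to equal. In gene order the 15 members run from Serpinb1a to Serpinb6a, with Serpinb6b in place 3, and 8 were tested. The 7 tested besides Serpinb6b had mean log2 ratios between -0.08 and 0.10. Serpinb1c and Serpinb9, on either side of Serpinb6b, had means of -0.03 and -0.08. Serpinb9 is the mouse serpin known for inhibiting granzyme B, the killing protease of cytotoxic lymphocytes. Serpinb6a, at the far end of the group, gave 9277 against 8815 in the female and 9177 against 8295 in the male Pparg-cKO and control pools. Its log2 ratios were 0.01 and 0.19 (mean 0.10 ± 0.13, SD, n = 2, limma adjusted p = 0.909).

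**Figure D3:**
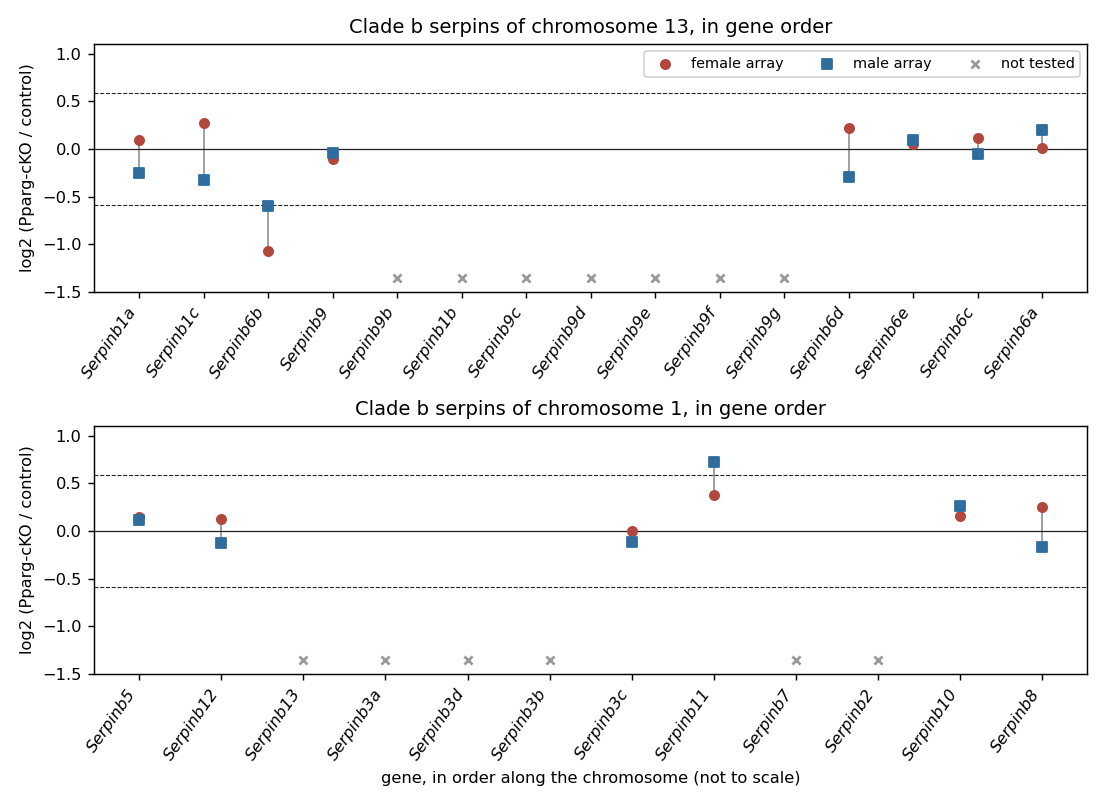
Log2 ratio of Pparg-cKO over control on the female array (circles) and the male array (squares) for the 15 clade b serpins of chromosome 13 and the 12 of chromosome 1, in gene order and not to scale. Dashed lines mark 1.5-fold and crosses mark genes not well above background. Serpinb6b on chromosome 13 is below the lower line on both arrays, and Serpinb11 on chromosome 1 is above the upper line on the male array.

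On chromosome 1, 6 of 12 clade b serpins were tested. Serpinb11, a clade b member whose target protease is little known, gave 10.7 against 4.49 in the female Pparg-cKO and control pools and 19.8 against 4.65 in the male pools. Both Pparg-cKO pools were above both control pools, at signals that stayed well under 100. The male control pool was not well above background, so that on the male array the gene was tested only through the pool in which it was the brighter, and every fold and p below is uncertain on that side. The log2 ratios of 0.38 and 0.72 (mean 0.55 ± 0.25, SD, n = 2) were not called by limma (adjusted p = 0.273, unadjusted p = 0.00797). For such dim genes the offset of 50 pulls ratios towards equal. Without it the Serpinb11 ratio was 2.01-fold and was called (adjusted p = 0.00771), and from scanner-processed signals it was 3.18-fold (adjusted p = 0.0530). Its probe, at chr1:109276756-109276815 of mm9 (plus strand), shared at most 9 bases with the probe of another serpin.
Serpinb11, bases 16 to 45 of the probe: tggatttaatatctttgagacctcatctga
Serpinb10, a serpin of blood-forming cells, had ratios above equal on both arrays, with 11.2 against 7.23 and 10.1 against 6.28 (mean log2 ratio 0.21 ± 0.07, adjusted p = 0.697). Its male control pool, too, was not well above background. From scanner-processed signals its mean log2 ratio was 0.65. The other 4 serpins tested on chromosome 1 had means between -0.06 and 0.13. The highest of these was Serpinb5, the epithelial serpin maspin, at 566 against 489 and 565 against 541.

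The 6 clade b serpins of chromosome 1 that were not tested (Serpinb2, Serpinb3a, Serpinb3b, Serpinb3d, Serpinb7 and Serpinb13) had signals between 0.622 and 2.57, and no ratio can be given for them. Of their neighbours, Serpinb3c gave 20.8 against 21.3 and 18.6 against 21.0 (mean log2 ratio -0.06, limma adjusted p = 0.963). Serpins of this group are known from stratified squamous epithelia. Of 12 markers of such epithelia tested, 3 keratins (Krt4, Krt6a and Krt6b) were called higher in Pparg-cKO ureters by limma, beside 0.751% of all genes. Over the 12 the median log2 ratio was 0.26 for females and 0.38 for males.

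The Serpina1 genes of clade a are the mouse antitrypsins, which inhibit neutrophil elastase. Serpina1d gave 150 against 98.3 in the female Pparg-cKO and control pools and 196 against 170 in the male pools. The Pparg-cKO pool was the higher on each array, but the groups overlapped across arrays, since the male control pool was above the female Pparg-cKO pool. The log2 ratios of 0.50 and 0.30 (mean 0.40 ± 0.14, SD, n = 2) were not called (limma adjusted p = 0.383). Its other probe, which the design lists for Serpina1d alone, gave 0.34 for females and -0.11 for males. Serpina1c gave 401 against 323 and 560 against 691, with log2 ratios of 0.30 and -0.29, and Serpina1e gave 332 against 306 and 429 against 628, with 0.10 and -0.58. For both, the direction was opposite on the 2 arrays. The other probe of Serpina1e gave -0.18 and -0.89.

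Values of the Serpina1 genes cannot be assigned to single genes with certainty. The design lists the Serpina1c probe for Serpina1a, Serpina1b and Serpina1c, and the Serpina1d probe for Serpina1b and Serpina1d. The probes of Serpina1a and Serpina1c shared a run of 47 bases, and each shared with that of Serpina1e the following 29 bases, shown as the part these 3 probes have in common.
Serpina1a, Serpina1c and Serpina1e: gtcatccttccttctgaattgggttcctt
Among all clade a genes tested, the mean log2 ratio ran from -0.24 to 0.40 with a median of -0.07 (0.04 for females and -0.13 for males), and 3 were higher and 5 lower on both arrays. Serpina3k, one of the antichymotrypsin-like genes multiplied in the mouse, had signals of 4.62 against 5.26 and 6.37 against 13.05 (mean log2 ratio -0.21 ± 0.22, adjusted p = 0.740), with the female Pparg-cKO pool not well above background. From scanner-processed signals its mean log2 ratio was -0.61, and without the offset it was -0.41.

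Antithrombin, heparin cofactor II and antiplasmin, serpins of clotting and fibrinolysis, were dim and were not called. Serpinc1, antithrombin, gave 21.7 against 27.3 and 30.1 against 41.9 (log2 ratios -0.15 and -0.33, adjusted p = 0.666). Serpind1, heparin cofactor II, gave 7.17 against 6.43 and 9.96 against 14.7 (log2 ratios 0.07 and -0.26, adjusted p = 0.936). Serpinf2, the plasmin inhibitor antiplasmin, gave 8.01 against 10.7 and 8.90 against 19.9, with the male control pool standing above the other 3 pools (log2 ratios -0.15 and -0.46, adjusted p = 0.609). For Serpind1 and Serpinf2 the female Pparg-cKO pool was not well above background. From scanner-processed signals the mean log2 ratio of Serpinf2 was -0.79, beside -0.30 here, that of Serpinc1 was -0.40 and that of Serpind1 -0.20.

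Most of these plasma serpins are products of the liver, and their ratios on the male array lay mostly below 0, as did those of other liver genes. A set of 13 such serpins was grouped from textbook knowledge after the values were seen, and 11 were tested. On the male array 10 of the 11 had ratios below 0, with a median log2 ratio of -0.33. The 11 include Serpina1a, Serpina1c and Serpina1e, whose probes share long runs of bases, so that these are not separate measurements with certainty. Of the 28 other serpins tested, 17 (60.7%) had ratios below 0 there. On the female array 3 of the 11 had ratios below 0, beside 10 of the 28 other serpins (35.7%) and 51.8% of all genes. The female median of the 11 was 0.07. The 14 liver markers, which include no serpin, were all well above background, and 12 had ratios below 0 in males and 9 in females, with medians of -0.68 and -0.06. Albumin (Alb) gave 598 against 690 in the female pools and 725 against 1540 in the male pools, and Afp, the fetal albumin relative, 417 against 454 and 487 against 1150. The summed signal of the 14 was 3983 against 4865 in the female and 4367 against 8071 in the male Pparg-cKO and control pools, with the male control pool highest. Trf, the transferrin gene, was the 1 marker of the 8 bright enough that met the fold rule (1352 against 2316 and 1463 against 2652), beside 1.05% of all genes in the lower direction. Without it the sums were 2631 against 2549 and 2904 against 5418, so that the female pools no longer differed in that direction. That female sum includes Cyp2e1, at 365 against 152, and so its direction depends on single genes. Hpx and Cyp2e1 had ratios above 0 on both arrays. Over all genes tested, 47.7% had ratios below 0 in males. The part of liver RNA in these serpin values was not tested.

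**Figure D4:**
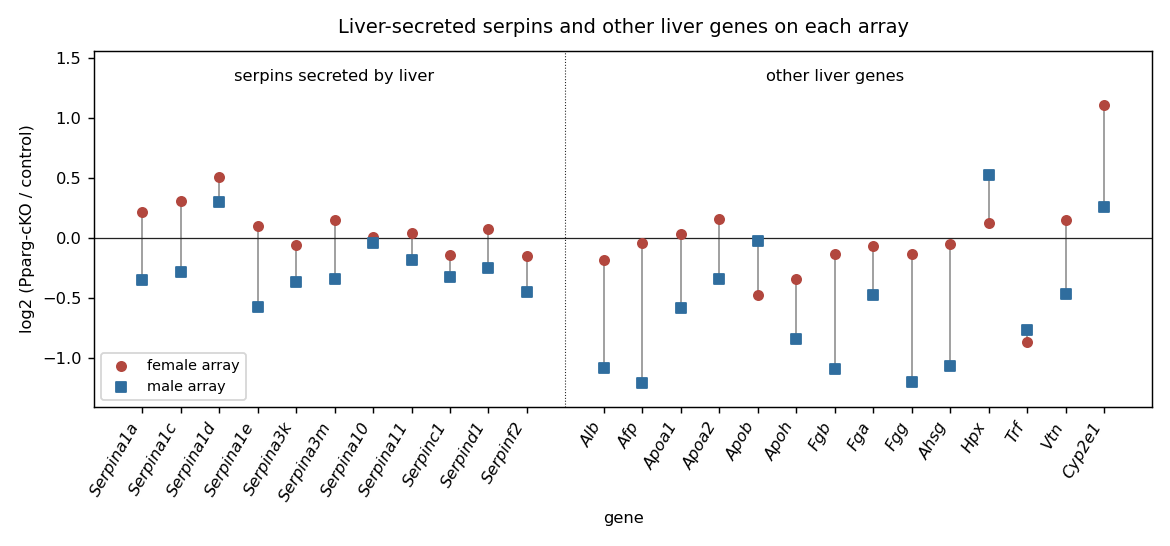
Log2 ratio of Pparg-cKO over control on the female array (circles) and the male array (squares) for the 11 liver-secreted serpins tested (left) and 14 other liver genes (right). Most squares lie below 0 in both sets, with medians of -0.33 and -0.68, whereas the circles have medians of 0.07 and -0.06.

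The secreted serpins Serpine2, Serpinf1, Serping1 and Serpini1 were bright enough for the fold rule, and none met it. The mean ratio was within 1.2-fold of equal for Serpine2, Serpinf1 and Serping1, whereas Serpini1 was 1.22-fold lower. Serpine2, protease nexin, which inhibits thrombin and plasminogen activators, gave 860 against 695 and 805 against 761. Both Pparg-cKO pools were above both control pools, with a mean log2 ratio of 0.21 ± 0.08 (SD, n = 2) that was not called (limma adjusted p = 0.708). Serpinf1, the anti-angiogenic factor PEDF, gave 2634 against 2596 and 2804 against 2537 (mean log2 ratio 0.09 ± 0.09, adjusted p = 0.915). Serping1, the C1 inhibitor of the complement and kinin systems, gave 4123 against 4064 and 3628 against 3722 (mean log2 ratio 0.02 ± 0.07, adjusted p = 0.990). Its sign turned under 4 other settings, including the median over both of its probes (-0.06) and the female array alone. Serpini1, neuroserpin, an inhibitor of tissue plasminogen activator, gave 308 against 381 and 297 against 379. Both Pparg-cKO pools of Serpini1 were below both control pools, and the log2 ratios of -0.27 and -0.31 were closely alike (mean -0.29 ± 0.03, SD, n = 2, limma adjusted p = 0.542, unadjusted p = 0.0383). A second Serpini1 probe gave -0.35 and -0.27.

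Serpinh1 gave 7815 against 7078 in the female and 7027 against 7301 in the male Pparg-cKO and control pools (log2 ratios 0.14 and -0.03, adjusted p = 0.966). The sign thus differed between the arrays, and both ratios were small. Its 15 collagen clients and folding partners, a list of fibrillar and basement membrane collagens with the enzymes that modify them, were all tested. None of the 15, all bright enough, met the fold rule (1.84% of all genes did) and limma called 0 (0.751%), with 3 at an unadjusted p of 0.05 (8.51%). Their median log2 ratio was 0.06 for females and 0.25 for males.

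The proteases, receptors and other inhibitors that work with serpins were examined in 5 lists of 91 genes, of which 82 were tested and 55 were bright enough for the fold rule. By that rule 1 gene was higher and 1 was lower, beside 1.84% of all genes bright enough. Limma called 0 of the 82, beside 0.751% of all genes, with a lowest adjusted p of 0.0685. At an unadjusted p of 0.05, 17 of the 82 passed (20.7%), beside 8.51% of all genes. Of the 27 target proteases (among them the plasminogen activators, thrombin, complement proteases, elastase and cathepsins), 25 were tested, and of the 13 bright enough 0 met the fold rule, beside 1.84% of all genes. Their median mean log2 ratio was 0.03.

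The gene that was lower by the rule was Vldlr, which encodes an endocytic receptor that takes up complexes of serpins with their proteases. It gave 1281 against 2088 in the female and 1302 against 2205 in the male Pparg-cKO and control pools. Both Pparg-cKO pools were below both control pools, by log2 ratios of -0.69 and -0.70 (1.62-fold, mean -0.70 ± 0.01, SD, n = 2, limma adjusted p = 0.0870). Under median centring Vldlr did not meet the rule. The 13 receptors and cofactors were all tested and had a median mean log2 ratio of 0.01.

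The gene that was higher by the rule was Itih2, a heavy chain of the inter-alpha-trypsin inhibitor, a hyaluronan-binding protease inhibitor complex. It gave 860 against 427 and 835 against 548, and both Pparg-cKO pools were above both control pools. The log2 ratios were 0.94 and 0.73 (1.79-fold, mean 0.84 ± 0.15, SD, n = 2, limma adjusted p = 0.0685). Itih2 is one of 21 other serine protease inhibitors on the array, of which 18 were tested with a median of -0.12. A pair of that list with higher values in Pparg-cKO ureters came close to the rule and are named after their values were seen. Spink8, a Kazal-type inhibitor, gave 103 against 50.9 and 87.2 against 48.0, past 1.5-fold on both arrays but under the intensity threshold on the male array. Wfdc2, an epithelial secreted protein with whey acidic protein domains, gave 8468 against 5210 and 8390 against 5811, with log2 ratios of 0.72 and 0.54, the male one under 1.5-fold. With the median over a gene's probes in place of the brightest probe, Wfdc2 met the rule. Spink1, also named after its values were seen, went the other way, at 18.2 against 34.4 and 11.2 against 36.5. Its mean log2 ratio was -0.68 (limma adjusted p = 0.158), and its signals were under the intensity threshold. Of the 18 tested in that list, 4 were higher and 9 lower on both arrays. Of 15 cysteine protease inhibitors 11 were tested with a median of -0.20, and of the 6 bright enough 0 met the rule, beside 1.84% of all genes.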

How the data were processed

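RNA of pooled E18.5 ureters was hybridised by the authors to 2 Whole Mouse Genome arrays and read with Agilent Feature Extraction 10.7.3.1 per the submitters' processing notes. Per the file headers, the scanner files hold spot intensity on a linear scale (mean signal, median local background and a processed signal). Per the file headers, they also hold the log10 ratio of red over green processed signal that the scanner software computed, which was used only as a check. The deposited value table is a score made by the authors, a signed fold change per probe with a fall written as a negative number, and served as an alternative. Intensities were corrected with normexp (offset 50) and each array was normalised by loess, with limma 3.58.1 in R 4.3.3. Outlier spots were dropped (2.87% and 3.24%), the 4 spots of a probe were averaged, and a gene was represented by its brightest probe. Genes were tested where at least 50% of kept spots were well above background in at least 1 pool on both arrays.

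By the dye labels the control was red on replicate 1 and Pparg-cKO on replicate 2. The deposited table correlated with log2 red over green at 0.972 and -0.984 over probes with a signal of at least 100, which is the opposite direction on both arrays, and its direction was kept. The limma fit tested the mean of both log2 ratios, with 1 residual degree of freedom, a prior of 4.00 and Benjamini-Hochberg adjustment over 22499 genes, and was tested on simulated data. The fold rule followed the study's methods. The number of arrays limits the precision.

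The members and lists were chosen with earlier results of these data known. Serpins were named where they passed the fold rule or limma, were the brightest of their clade, were among the 10 largest mean differences, or passed 1.5-fold in opposite directions, and partner genes where they passed. Of the serpins so named, 1 is not reported here. All 62 symbols matched RefSeq. Probe positions are those of the design, and exon structure was not analysed here. Alternatives were scanner-processed signals, median centring, no offset, the median over probes, no filter on dim probes, the deposited table, an intensity of 200, a 2-fold threshold and each array alone. The 7 marker lists were urothelium, smooth muscle and mesenchyme, liver, squamous epithelium, white blood cells, endothelium and kidney tubule.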

Additional observations from a re-analysis of the deposited data

Results flagged for a closer look

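Of the 39 serpins tested, 2 lay at least 1.2-fold from equal on both arrays but in opposite directions. The share of all genes that did so was not counted, so whether this count is unusual cannot be said. For Serpina1c the log2 ratio was 0.30 in the female and -0.29 in the male pools, a difference of -0.59 (male minus female). The design lists its probe also for Serpina1a and Serpina1b. For Serpinb1c it was 0.27 and -0.33, a difference of -0.60. With 1 array per sex these differences were not tested, and sex, dye orientation and array cannot be told apart. Serpinb1c had signals of 48.0 against 37.8 and 30.7 against 43.0 in the Pparg-cKO and control pools.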

How the results depend on the processing

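The count of 1 serpin past the fold rule held under scanner-processed signals, no offset, the median over probes and the deposited table. The serpin was Serpinb6b each time. The filter on dim probes plays no part in the rule, so that the count could not change without it. At an intensity of 200 and on either array alone Serpinb6b had to pass. Its control signals were 362 and 315, and the rule already asked for both arrays. No other serpin passed under these settings. The count fell to 0 under median centring and at 2-fold. Median centring also turned the split over all genes from 111 higher and 147 lower to 115 and 100. The count of 0 serpins called by limma became 2 without the offset (Serpinb6b and Serpinb11, mean log2 ratios -0.89 and 1.01) and stayed 0 under the 5 other settings with a test. On the male array Serpinb11 was tested only through the Pparg-cKO pool, in which it was the brighter, so that its call is uncertain. The deposited table called 0 of all genes, and normexp without the offset called 571, against 169. The 2 partner genes past the fold rule became 1 under median centring (Itih2), 0 at 2-fold and 3 over all probes (with Wfdc2), and were between 4 and 13 on single arrays, where a single ratio has to pass. The medians of all serpins, clade a and clade b moved by less than the spread between the arrays under the 6 alternatives that kept both arrays and gave a median, but near 0 their signs turned: all serpins from -0.03 to 0.0095 under median centring, and clade b from 0.02 to -0.02 in the deposited table and -0.0020 with no filter. Of 96 comparisons with a test over 16 named serpins, 90 kept their direction and stayed on the same side of the limma threshold, 2 were newly called and 4 turned sign. Of 32 single-array values, 5 turned sign. Serping1 gave -0.0080 from scanner-processed signals, -0.062 over all probes and -0.0042 in the deposited table, against 0.021, and 0.073 without replicate 1 and -0.031 without replicate 2. Serpina1c gave -0.0015 without the offset. Without replicate 1 and without replicate 2, in that order, Serpina1c gave -0.29 and 0.30, Serpina1e -0.58 and 0.096, Serpind1 -0.26 and 0.072, and Serpinh1 -0.030 and 0.14. The causes of these changes were not tested. Single-array values have no test. Every ratio is already a paired one, of the pools on 1 array, and no further replicate block could be fitted. Signal over background limits the 23 serpins not tested and the ratios of dim genes.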
